A study of Homo sapiens with 17 samples.

Results

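KRT7, KRT8, KRT18 and KRT19, which encode keratins of simple epithelia, CLDN6, EPCAM and CDH1, which encode proteins of epithelial cell contacts, GRHL2, an epithelial transcription factor, and TTR, the choroid plexus carrier protein, were followed through cultures of human neurons with and without a UTX knockout. The 9 genes were taken by name from a table of 60199 gene symbols, and 8 of them, all but GRHL2, passed the filter on low counts that left 18614 genes to test. The cells were neurons grown to day 40 from H9, an established human embryonic stem cell line, by way of embryoid bodies, picked neural rosettes and neurospheres. The groups were UTX-/- line KO1 (3 RNA libraries), UTX-/- line KO2 (2 RNA libraries) and wild type (WT, 3 RNA libraries). The knockout of UTX (gene symbol KDM6A) is the labelled difference between the lines, the 2 knockout lines have the same genotype label, and no label states that replicates were differentiated separately. The p-values therefore reflect the spread of these libraries alone, which may be technical. For chromatin there was 1 deposited list of peaks per genotype for H3K27me3 and for H3K36me3, with no replicate list.

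Keratins are the intermediate filament proteins of epithelial cells. They assemble from a type II partner such as KRT7 or KRT8 and a type I partner such as KRT18 or KRT19, and KRT8 with KRT18 is the pair of the earliest embryonic epithelia. Claudins seal tight junctions, CDH1 (E-cadherin) joins cells at adherens junctions, EPCAM is a surface adhesion protein of epithelia and of pluripotent cells, and GRHL2 activates epithelial junction genes. Neurons use CDH2 in place of CDH1 and lack simple keratins, while the choroid plexus, the epithelium of the brain ventricles, secretes TTR, which carries thyroid hormone and retinol-binding protein. UTX is a demethylase for H3K27me3, the trimethylation of lysine 27 of histone H3. H3K27me3 marks genes repressed by Polycomb complexes, and H3K36me3 covers transcribed gene bodies.

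Levels are given in CPM, counts scaled to a library total of 1 M after TMM scaling (M for mega). Library totals were 18.7 to 31.5 M estimated counts in KO and 17.4 to 27.8 M in WT. KDM6A RNA itself averaged 33 ± 5.5 CPM in KO and 35.7 ± 0.46 CPM in WT (SD, n = 5 and 3), a log2 fold change of -0.12 (edgeR FDR 0.672), so its RNA level does not check the labels. The summed level of 12 neuronal markers was 775.6 to 4868 CPM in KO and 3702 to 5529 CPM in WT. In 3 KO libraries, KO1 replicate 2 and both of KO2, the collagen gene COL1A1 stood at 27544, 9226 and 14456 CPM, against 277.9 and 258.1 CPM in KO1 replicates 1 and 3 and 7.65 to 387.1 CPM in WT. These 3 are called the high-collagen libraries, and over 16 mesenchymal markers, none of them at 0 in any library, they summed to 33467 to 82751 CPM, against 3521 to 4104 CPM in the other 2 KO libraries and 2128 to 4403 CPM in WT. Neuronal markers summed to 775.6 to 2766 CPM in the high-collagen libraries, below every other library. In bulk RNA, more cells of a type and more RNA per cell cannot be told apart. Results for the 8 tested genes in KO against WT are therefore given with and without these libraries.

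**Figure D1:**
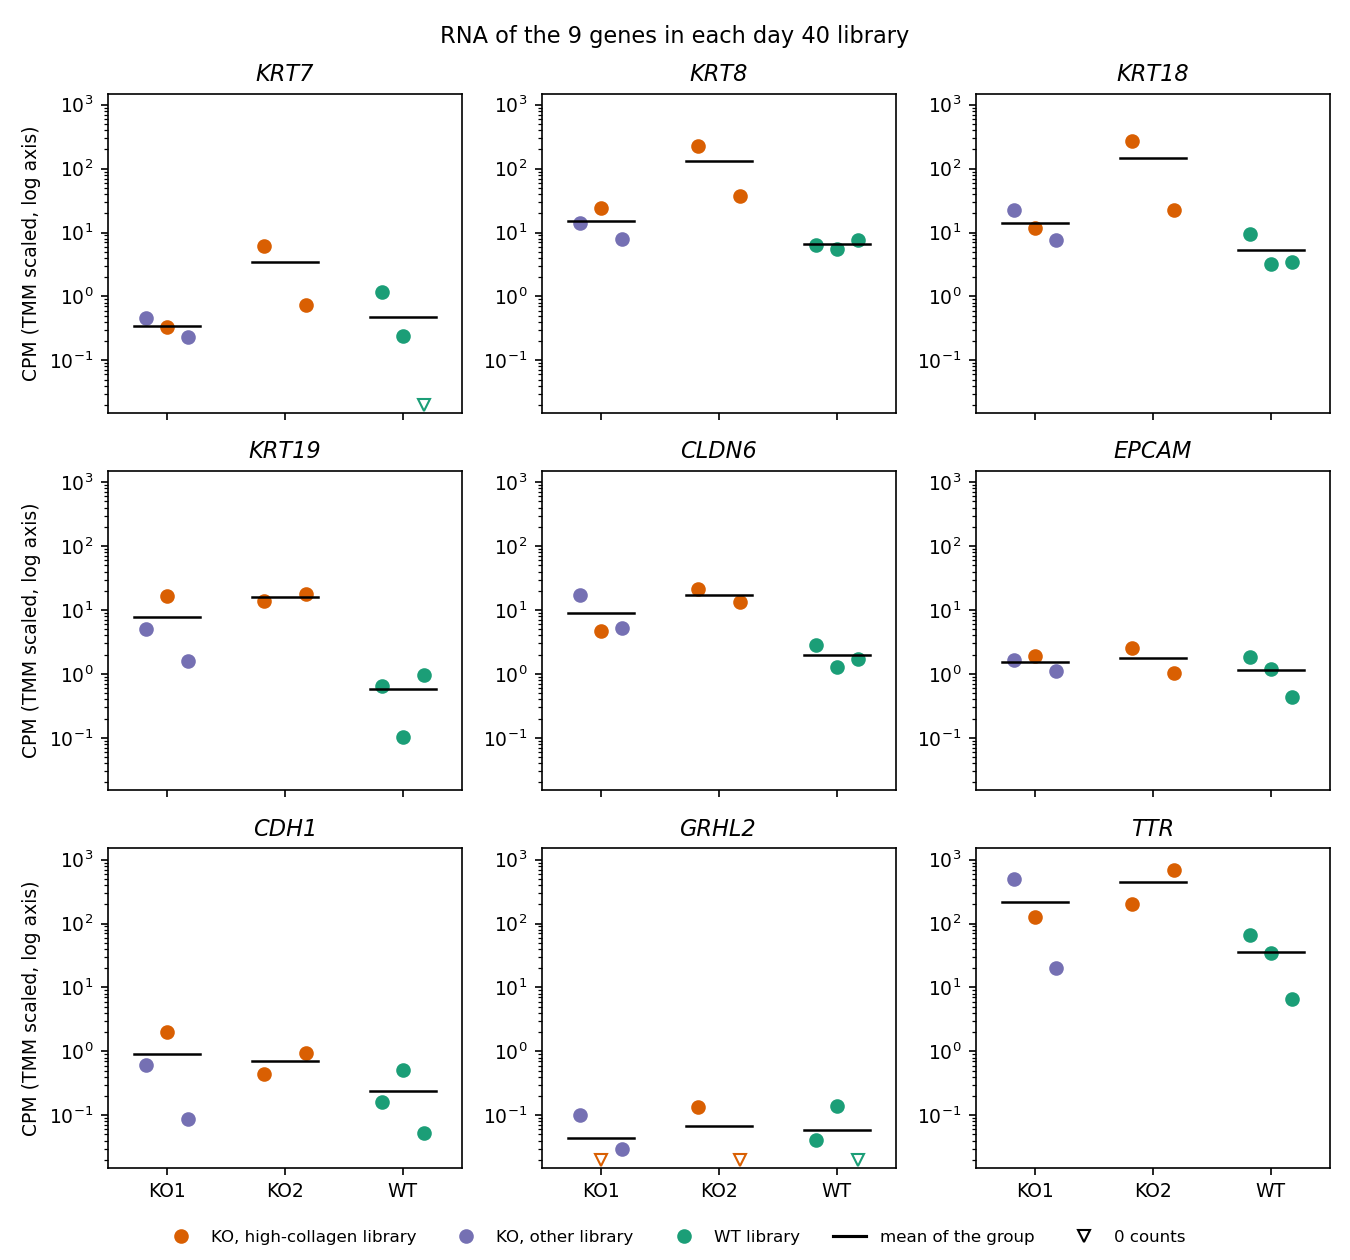
Level of each of the 9 genes in every RNA library, in TMM-scaled CPM on a log axis, for KO1, KO2 and WT; points are libraries, bars are group means and open triangles mark 0 counts. KRT8, KRT19 and CLDN6 stood higher in all 5 KO libraries than in any WT library, and KO2 replicate 1 stood far above the rest for KRT7, KRT8 and KRT18.

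KRT8, KRT19, CLDN6 and TTR were higher in KO in the authors' deposited table (DESeq2, adjusted p under 0.05), and no gene was lower among the 9. That is 4 of the 8 tested genes, where 5.23% of all tested genes were called higher in that table. edgeR's quasi-likelihood test called 0 of the 18614 genes at an FDR of 0.05, and at an unadjusted p under 0.05 it put 3337 genes (17.9%) past that threshold, with 5 of the 8 (KRT8, KRT18, KRT19, CLDN6 and TTR) higher, against 11.5% of all genes. The median log2 fold change of the 8 genes was 2.87, and all 8 values were positive, against a median of -0.01 and 49.4% positive values over all tested genes. The 9 genes were chosen with earlier results of these data known, so none of these shares is a test of the set. Without the high-collagen libraries the median of the 8 fell to 1.13 and DESeq2 called 1 of them, CLDN6, where 0.865% of all tested genes were called higher. KO then keeps 2 libraries, both of KO1. A lost call can therefore also come from fewer libraries or from the absence of KO2, which cannot be told apart here.

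KRT8 lies at chr12:52897191-52949860 (GRCh38.p14, as are all gene spans here) and stood at 14.3, 24.0 and 7.96 CPM in KO1 and at 222.6 and 37.8 CPM in KO2, against 6.36, 5.59 and 7.62 CPM in WT. The lowest KO library exceeded the highest WT library, which holds for 6.29% of tested genes. That margin was small, for KO1 replicate 3, while KO2 replicate 1 exceeded every other library many times over. KO averaged 61.3 ± 90.8 CPM and WT 6.52 ± 1.02 CPM (SD, n = 5 and 3). The authors' deposited table gives a log2 fold change of 3.24 with a standard error of 0.93 and an adjusted p of 0.0155, while edgeR gave 3.23 with an FDR of 0.248. The DESeq2 call was lost with WT replicate 1, 2 or 3 left out (adjusted p 0.0924, 0.112 and 0.0813), and no p was given without KO2 replicate 2. With KO2 replicate 1 left out, the log2 fold change was 1.72 (DESeq2 adjusted p = 0.0369), and without the 3 high-collagen libraries it was 0.77 (DESeq2 adjusted p = 0.405).

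KRT18, the type I partner of KRT8, lies beside it at chr12:52948855-52952906, and the 2 annotated spans overlap over 1006 bp. KRT18 stood at 22.5, 11.9 and 7.67 CPM in KO1 and at 269.9 and 22.6 CPM in KO2, against 9.36, 3.22 and 3.43 CPM in WT. The groups overlapped, since KO1 replicate 3 lay below WT replicate 1, and KO2 replicate 1 again stood far above the others. The authors' deposited table has a log2 fold change of 3.65 with a standard error of 1.06 and no p-value. DESeq2 withholds a p where 1 library weighs too heavily on a gene (its filter on Cook's distance), which affected 0.301% of tested genes. Run without that filter, DESeq2 gave an adjusted p of 0.0168, and edgeR gave an FDR of 0.259. With KO2 replicate 1 left out, the log2 fold change was 1.62 (DESeq2 adjusted p = 0.0702), and without the high-collagen libraries it was 1.5 (DESeq2 adjusted p = 0.272).

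Over all libraries, the ratio of the 2 partner keratins varied less than their total did, but within WT the ratio varied more than the total. KRT8 counts divided by KRT18 counts gave 0.635, 2.02 and 1.04 in KO1 and 0.825 and 1.67 in KO2, against 0.68, 1.73 and 2.22 in WT, so the KO and WT ranges overlapped. KRT8 and KRT18 together had 472.8 CPM before TMM scaling in KO2 replicate 1 and 16.9 to 56.8 in the other 4 KO libraries, against 9.25 to 16.2 in WT. The count ratio depends on transcript length and is compared here only between libraries. The counting step for reads of the overlap is not stated in the labels, and such reads could be assigned to either gene.

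KRT19, a type I keratin of simple and ductal epithelia, lies at chr17:41523617-41528308 and had the largest log2 fold change of the 8 tested genes. It stood at 5.05, 16.4 and 1.59 CPM in KO1 and 13.6 and 17.8 CPM in KO2, against 0.648, 0.103 and 0.965 CPM in WT. Every KO library lay above every WT library, and the 3 high-collagen libraries were the 3 highest. KO averaged 10.9 ± 7.18 CPM and WT 0.572 ± 0.436 CPM (SD, n = 5 and 3). The authors' deposited table gives a log2 fold change of 4.29 with a standard error of 0.83 and an adjusted p of 7.62e-05, and edgeR gave 4.27 with an FDR of 0.243. DESeq2 called KRT19 with any single library left out, while without the 3 high-collagen libraries the log2 fold change was 2.56 with a DESeq2 adjusted p of 0.148. The high-collagen libraries were thus highest in both KRT19 and mesenchymal markers. In KO1 replicates 1 and 3, KRT19 stood above WT with mesenchymal sums of 4104 and 3521 CPM, inside the WT range. VIM alone made up 2399 and 1955 CPM of those sums, against 1800 to 2400 CPM in WT. TAGLN, at 312.5 and 51 CPM, and ACTA2, at 150.6 and 25.8 CPM, stood above WT there (5.97 to 19.1 and 4.53 to 19.5 CPM). They were the 2 of the 16 mesenchymal markers with every KO library above every WT library. The part of mesenchymal cells in the KRT19 level was not tested.

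KRT7, a type II keratin of glandular epithelia at chr12:52233243-52255853, was near the limit of detection in most libraries. It stood at 0.455, 0.337 and 0.235 CPM in KO1 and at 6.23 and 0.743 CPM in KO2, against 1.18, 0.24 and 0 CPM in WT. KO2 replicate 1, with 139 counts, was the only KO library above the highest WT library, and the 0 counts of WT replicate 3 allow up to 0.173 CPM before TMM scaling, taking 3 counts as the limit that a count of 0 allows. The edgeR log2 fold change was 1.73 (FDR 0.502), and it was -0.11 with KO2 replicate 1 left out and -0.51 without the high-collagen libraries, so its sign rests on that library. The authors' deposited table has no p-value for KRT7.

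**Figure D2:**
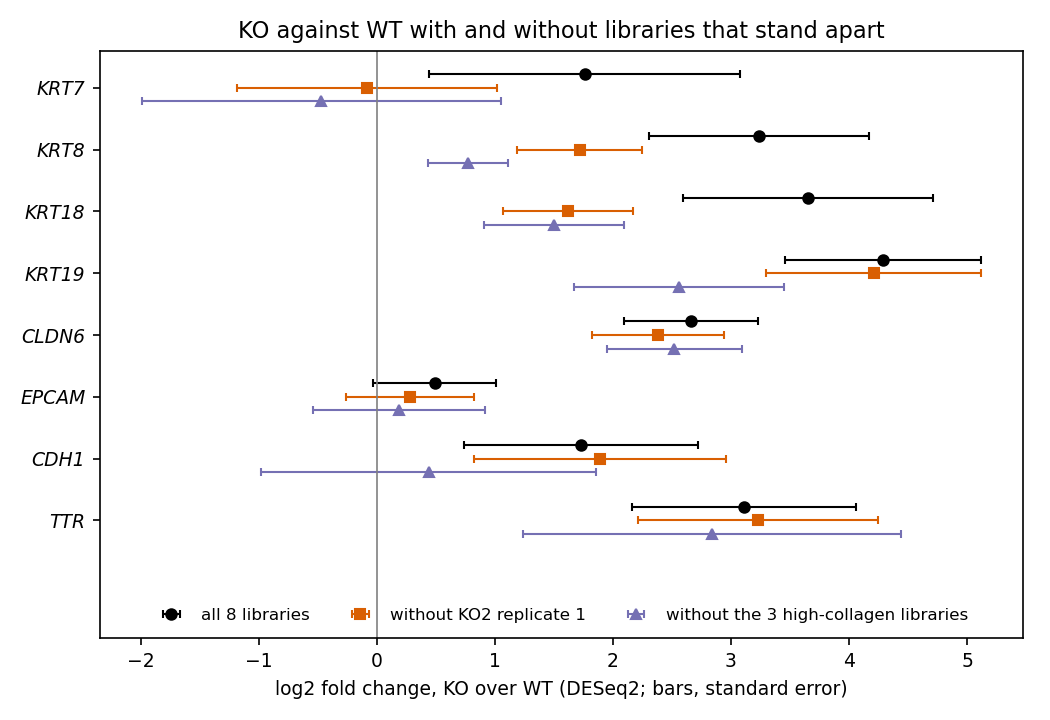
DESeq2 log2 fold changes, KO over WT, of the 8 tested genes with all 8 libraries (circles), without KO2 replicate 1 (squares) and without the 3 high-collagen libraries (triangles); bars are standard errors. CLDN6 stayed between 2.38 and 2.66, KRT8 ranged from 0.77 to 3.24, and KRT7 changed sign.

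CLDN6, a claudin of embryonic epithelia, was higher in KO by DESeq2 whichever single library was left out. It lies at chr16:3014712-3018183 and stood at 17.3, 4.71 and 5.26 CPM in KO1 and 21.1 and 13.2 CPM in KO2, against 2.88, 1.3 and 1.72 CPM in WT. No WT library reached the lowest KO library, and KO1 replicate 1, which is not a high-collagen library, was the second highest while KO1 replicate 2, which is one, was the lowest KO library. KO averaged 12.3 ± 7.24 CPM and WT 1.97 ± 0.816 CPM (SD, n = 5 and 3). The authors' deposited table gives a log2 fold change of 2.66 with a standard error of 0.57 and an adjusted p of 0.000451, and edgeR gave 2.64 with an FDR of 0.243. Without the high-collagen libraries the log2 fold change was 2.52 with a DESeq2 adjusted p of 0.00256, so the difference was about as large without them.

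CLDN6 and KRT8 are the 2 genes of the 9 for which RefSeq promoter sequence was at hand. They are shown because a repressive H3K27me3 peak reached into the first in both genotypes and into the second in neither. The KO peak ended at chr16:3018226, inside the CLDN6 sequence, and the WT peak ran past that sequence to chr16:3018551. The KRT8 entry may not be the start used in these cells, as the span runs on to chr12:52949860, an end that lies inside a WT peak. Each is the 250 bases before the annotated start (GRCh38.p14, minus strand), printed 5′ to 3′ with CG dinucleotides in capitals. CLDN6 is at chr16:3018184-3018433 and KRT8 at chr12:52926470-52926719, inside the KRT8 span.
CLDN6: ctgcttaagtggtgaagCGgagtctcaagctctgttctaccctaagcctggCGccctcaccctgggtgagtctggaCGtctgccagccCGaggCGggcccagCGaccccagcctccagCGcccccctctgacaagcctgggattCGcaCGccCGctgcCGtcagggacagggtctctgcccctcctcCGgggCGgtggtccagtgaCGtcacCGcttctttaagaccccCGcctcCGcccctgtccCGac
KRT8: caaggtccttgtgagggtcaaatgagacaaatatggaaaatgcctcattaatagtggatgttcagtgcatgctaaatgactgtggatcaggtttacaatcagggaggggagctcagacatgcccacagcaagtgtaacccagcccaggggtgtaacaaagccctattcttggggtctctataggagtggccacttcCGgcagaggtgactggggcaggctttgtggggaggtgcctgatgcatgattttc
Extended 50 bases past the start, the CLDN6 window held 21 CG dinucleotides, where the median of 27305 promoters was 14 and 39.5% had at least as many, and the KRT8 window held 2, where 88.5% had at least as many. Searched on both strands of these 300-base windows, the E-box CACCTG, which SNAI and ZEB repressors bind, occurred at 1 place in CLDN6 and at 0 in KRT8, and 20.6% of promoters held it. The grainyhead motif AACNGGTT occurred in neither (1.73% of promoters), the GC box GGGCGG occurred at 2 places in CLDN6 and 0 in KRT8 (44.6%), and TATAAA occurred in neither (12% of promoters). These matches describe the letters of the windows only.

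EPCAM and CDH1 did not pass either test. EPCAM, at chr2:47369311-47387020, stood at 1.62, 1.91 and 1.09 CPM in KO1 and 2.55 and 1.04 CPM in KO2, against 1.86, 1.2 and 0.429 CPM in WT. The authors' deposited table gives EPCAM a log2 fold change of 0.49 with a standard error of 0.52 (adjusted p = 0.61). CDH1, at chr16:68737292-68835537, stood at 0.606, 2.02 and 0.0881 CPM in KO1 and 0.448 and 0.941 CPM in KO2, against 0.162, 0.514 and 0.0536 CPM in WT. Its groups overlapped, with 3 of 5 KO libraries above the highest WT library, and the authors' deposited table gives it 1.73 with a standard error of 0.99 (adjusted p = 0.304). CDH1 rested on 3 to 36 counts in KO and 1 to 15 in WT.

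GRHL2, at chr8:101492439-101681200, was at or near 0 in every library. It had 2, 0 and 1 counts in KO1 and 3 and 0 counts in KO2, against 1, 4 and 0 counts in WT. With 0 counts, KO1 replicate 2 and KO2 replicate 2 allow up to 0.139 and 0.14 CPM before scaling, and WT replicate 3 up to 0.173 CPM, so no difference was detectable at this depth. The keratin and claudin levels above thus come from libraries with at most 4 GRHL2 counts.

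TTR varied widely among the libraries of each genotype. At chr18:31591877-31598821, it stood at 497.2, 127.3 and 20.5 CPM in KO1 and 202.9 and 686.7 CPM in KO2, against 67.0, 34.4 and 6.54 CPM in WT. The 4 highest KO libraries lay above all WT libraries, but KO1 replicate 3 lay below WT replicates 1 and 2. KO averaged 306.9 ± 276.4 CPM and WT 36 ± 30.3 CPM (SD, n = 5 and 3). The authors' deposited table gives a log2 fold change of 3.11 with a standard error of 0.95 and an adjusted p of 0.0248, and edgeR gave 3.09 with an FDR of 0.259. The DESeq2 call was lost, with adjusted p of 0.0855 to 0.165, when KO1 replicate 2, KO2 replicate 2, WT replicate 2 or WT replicate 3 was left out. Without the high-collagen libraries the log2 fold change was 2.84 (DESeq2 adjusted p = 0.652).

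The 2 knockout lines were also set against WT separately, in fits that share the WT libraries. For KO1, DESeq2 called KRT19 (log2 fold change 3.80, standard error 0.92, adjusted p 0.0101) and CLDN6 (2.21, standard error 0.60, adjusted p 0.034) higher, where 0.674% of tested genes were called higher. For KO2, DESeq2 called KRT8 (4.32, adjusted p 3.91e-06), KRT18 (4.78, adjusted p 0.000108), KRT19 (4.82, adjusted p 0.000478), CLDN6 (3.14, adjusted p 0.000496) and TTR (3.65, adjusted p 0.0482) higher, where 3.26% of tested genes were. KRT8 and KRT18 rested largely on 1 library there, since without KO2 replicate 1 the edgeR log2 fold changes of KO2 against WT were 2.57 and 2.12, against 4.32 and 4.77 with it, and TTR stood at 2.47 without KO2 replicate 2, against 3.62 with it. For KO1, KRT19 stood at 2.56 without KO1 replicate 2, against 3.77 with it, and CLDN6 at 1.34 without KO1 replicate 1, both from edgeR. The direct comparison of KO2 with KO1 called none of the 9, with KRT8 nearest at a log2 fold change of 3.07 and a DESeq2 adjusted p of 0.054, where 0.0463% of tested genes were called. edgeR called 0 genes in each of these 3 comparisons, and at an unadjusted p under 0.05 they held 8.06%, 18.3% and 2.24% of tested genes. With KO1 replicate 2 left out, so that it no longer entered the shared estimate of spread, edgeR called 16.7% of tested genes for KO2 against WT (10.4% higher), KRT8, KRT18, KRT19 and CLDN6 among them, with FDR of 0.0103, 0.0275, 0.0125 and 0.0154. Both KO2 libraries are high-collagen libraries, so no KO2 library without that feature was measured, and KO1 replicate 2 is the 1 high-collagen library of the other line. In it KRT8 stood at 24.0 CPM and CLDN6 at 4.71 CPM, against 37.8 and 13.2 CPM in the lower of the KO2 libraries for each gene. KRT7, KRT18 and TTR also stood below both KO2 libraries there. KRT19, EPCAM and CDH1 did not, at 16.4, 1.91 and 2.02 CPM, against 13.6, 1.04 and 0.448 CPM in the lower KO2 library.

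The 9 genes did not share 1 profile over the 8 libraries. The likeness of 2 genes was taken as the root mean square difference of their log2 CPM, each centred on its own mean over the 8 libraries, so that 0 means the same profile. KRT8 and KRT18 differed by 0.67, the smallest difference of any pair of the 8 tested genes, while KRT8 differed from KRT19 by 1.40, from CLDN6 by 1.06 and from TTR by 1.80. Among all other tested genes, the closest to KRT8 was ADAM12, a metalloprotease of mesenchyme and placenta, at 0.41. The closest to KRT18 were KCNA1, a potassium channel subunit, at 0.44, CLEC19A at 0.48 and PLAU, the urokinase-type plasminogen activator, at 0.49. KO2 replicate 1 was the highest library for KRT7, KRT8, KRT18 and these 4 genes, and also for 16.9% of all tested genes.

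KRT19 was closest to CAV1, the main protein of caveolae, at 0.49, and to ANXA2, a membrane-binding annexin, and ACTA2, smooth muscle actin, at 0.52 each. ACTA2 stood at 150.6, 373.7 and 25.8 CPM in KO1 and 362.0 and 357.3 CPM in KO2, against 6.28, 4.53 and 19.5 CPM in WT. CLDN6 was closest to ANXA3, another annexin, at 0.35, and to DSP, the desmosomal plaque protein, at 0.39. DSP stood at 54.6, 13.5 and 20.3 CPM in KO1 and 36.2 and 31.1 CPM in KO2, against 7.94, 2.54 and 6.33 CPM in WT, so that like CLDN6 it had its lowest KO level in a high-collagen library. TTR was closest to HTR2C, a serotonin receptor abundant in choroid plexus, at 0.55, and the next gene, NPPB, was at 0.84. HTR2C stood at 70.0, 16.9 and 7.75 CPM in KO1 and 35.0 and 105.1 CPM in KO2, against 21.5, 6.21 and 1.88 CPM in WT. These likenesses describe 8 libraries and carry no test.

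**Figure D3:**
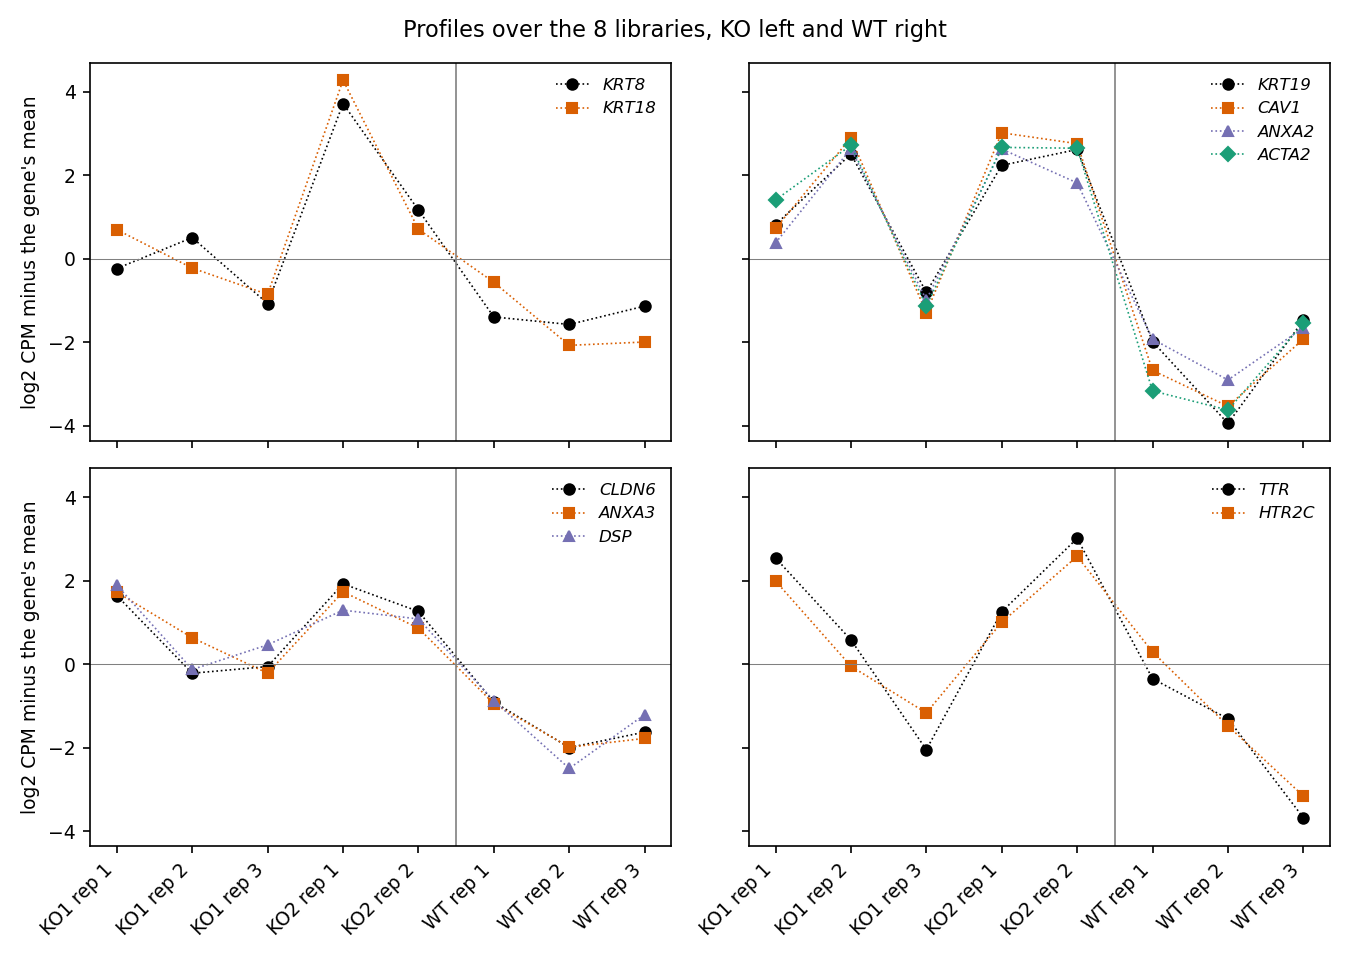
Log2 CPM minus each gene's own mean, for the 5 KO libraries left of the line and the 3 WT libraries right of it; dotted lines only join the points of a gene. KRT8 and KRT18 peak in KO2 replicate 1, KRT19 follows CAV1, ANXA2 and ACTA2, CLDN6 follows ANXA3 and DSP, and TTR follows HTR2C.

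Other epithelial genes were read from lists written down by name, and within them the authors' deposited table called 8 of 49 tested genes higher (16.3%, where 5.23% of all tested genes were) and none lower. These lists were chosen with earlier results of these data known. Of the 8 genes, named below, DSP was still called by DESeq2 without the high-collagen libraries (log2 fold change 2.74, adjusted p 9.91e-05), and the other 7 had adjusted p of 0.102 to 0.86. In that fit DESeq2 called 2 tight junction genes and 2 adherens junction and desmosome genes higher, DSP among the latter. It called 0 other keratins and 0 epithelial regulators and surface genes higher, where 0.865% of all tested genes were. CGNL1 then stood at a log2 fold change of 0.61, PERP at 0.67 and KLF5 at 1.52, against 6.03 for KRT17. Of 23 further tight junction genes, 20 were tested, 14 had positive log2 fold changes and 2 were called higher, with a median of 0.69, or 0.36 without the high-collagen libraries. The called genes were CGNL1, paracingulin, with a log2 fold change of 2.73 (adjusted p 0.00836 there), and CLDN2, the pore-forming claudin of choroid plexus and kidney tubule, with 2.06 (adjusted p 0.0121) in the authors' deposited table. TJP1, the tight junction scaffold, stood at 118.3 to 155.8 CPM in KO and 114.4 to 135.6 CPM in WT. Of 18 adherens junction and desmosome genes, 14 were tested and 3 were called higher in the authors' deposited table, DSP (2.49, adjusted p 0.000302), PERP (2.30, adjusted p 0.00815) and CTNNA1, alpha-catenin (0.56, adjusted p 0.0244). CTNNB1, beta-catenin, stood at 611.2 to 757.8 CPM in KO and 493.1 to 634.1 CPM in WT, and CDH2, the cadherin of neural cells, at 242.4 to 736.5 CPM in KO and 511.2 to 624.1 CPM in WT.

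Of 13 other keratins, 3 were tested and 8 stayed under 1 CPM in every library. KRT17, a keratin of basal and stressed epithelia, was the only one called higher in the authors' deposited table (6.03, adjusted p 0.000224), at 5.15, 2.13 and 0.206 CPM in KO1 and 2.69 and 3.27 CPM in KO2, against 0.122, 0 and 0 CPM in WT. KRT10 stood at 5.76 to 25.3 CPM in KO and 11 to 20 CPM in WT. KRT80, also tested, had a log2 fold change of 6.36 and no p-value in the authors' deposited table. It stood at 10.8 CPM in KO2 replicate 1, against 0 to 0.617 CPM in the other KO libraries and 0 to 0.0536 CPM in WT. Of 23 epithelial regulators and surface genes, 12 were tested and 2 were called higher in the authors' deposited table, KLF5, a zinc-finger factor of epithelial progenitors (3.01, adjusted p 0.000873), and SPINT1, a protease inhibitor (2.11, adjusted p 0.00963). CD24, a surface protein that neural progenitors also carry, stood at 184.9 to 519.8 CPM in KO and 385.5 to 610.1 CPM in WT. OVOL1, OVOL2, ESRP1, ESRP2, EHF and TP63, which act in epithelial identity or splicing, were among 11 of the list under 1 CPM in every library.

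Transcription factors known to repress CDH1 were present as well. All 8 listed were tested, and the authors' deposited table called SNAI2 (5.09, adjusted p 7.03e-06) and SNAI1 (2.72, adjusted p 0.0459) higher. SNAI2 stood at 11.1, 140.2 and 5.37 CPM in KO1 and 83.3 and 83.0 CPM in KO2, against 2.72, 0.96 and 2.15 CPM in WT, with its 3 highest values in the high-collagen libraries. When they were left out, DESeq2 gave log2 fold changes of 2.09 for SNAI2 (adjusted p 0.0116) and 0.04 for SNAI1 (adjusted p 0.999). Over the 8 factors the median log2 fold change was 1.40. With those libraries left out it was -0.11, over the 7 factors that then passed the filter on low counts. TCF3 and TCF4, the most abundant of the list, were not called in the authors' deposited table (0.776 and 0.632 after adjustment).

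Markers of cell types that could carry these epithelial genes were counted in the same libraries. Of 19 choroid plexus genes other than TTR, 18 were tested, 16 had positive log2 fold changes and 4 were called higher in the authors' deposited table, among them CLIC6, an intracellular chloride channel protein (3.60, adjusted p 0.0155), and PRLR, the prolactin receptor (2.18, adjusted p 0.0295). Their summed level was 266.6 to 1166 CPM in KO and 148.4 to 260.3 CPM in WT, with KL and KCNE2 under 1 CPM in every library, and IGF2, which mesenchyme also expresses, made up 11.9 to 1047 CPM of it in KO and 5.49 to 147.6 CPM in WT. OTX2, a factor of choroid plexus and anterior neural cells, stood at 13.9 to 161.4 CPM in KO and 40.9 to 54.4 CPM in WT. The median log2 fold change of these genes was 1.79, and 1.40 when the high-collagen libraries were left out, where CLIC6 and PRLR had DESeq2 adjusted p of 0.725 and 0.535. In that fit DESeq2 called 1 gene of the choroid plexus list higher, where 0.865% of all tested genes were. CLIC6 and PRLR were highest in KO2 replicate 1, at 95.8 and 22.2 CPM. Of 14 ciliated cell markers, 1 (DNAH9, an axonemal dynein; 1.31, adjusted p 0.0353) was called higher in the authors' deposited table, and the markers summed to 129 to 343.6 CPM in KO and 198.9 to 243.9 CPM in WT.

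Of 19 endoderm and yolk sac markers, 5 were tested, 13 stayed under 1 CPM everywhere, APOA2 and SOX17 were at 0 in every library, and the list summed to 14.4 to 77.4 CPM in KO and 31.8 to 65.2 CPM in WT. GATA6 was its 1 gene called higher in the authors' deposited table (3.38, adjusted p 0.0197). Of 8 mesothelial markers, UPK3B was called higher in that table (2.90, adjusted p 0.0197), while UPK1B and LRRN4 stayed under 1 CPM, and the list summed to 7.08 to 53.7 CPM in KO and 8.69 to 27.1 CPM in WT. Of 14 amnion and trophoblast markers, HAND1, CDX2, CGA and ELF5 were at 0 in every library, IGFBP3 and GATA2 were called higher in the authors' deposited table (adjusted p 1.69e-06 and 0.000112), and the list summed to 81.2 to 519.8 CPM in KO and 100.3 to 126.2 CPM in WT. Of the pluripotency markers, POU5F1 and NANOG stayed under 1 CPM in every library, and 0 of the 5 tested were called in that table. Of 16 mesenchymal markers, 10 were called higher in the authors' deposited table, with a median log2 fold change of 3.82, and of -0.16 without the high-collagen libraries. Of 8 endothelial and blood markers, 2 (KDR and PTPRC) were called higher in that table, and the list summed to 8.63 to 75.2 CPM in KO and 7.44 to 8.1 CPM in WT. None of the 12 neuronal and 11 progenitor markers was called in that table, with median log2 fold changes of -0.52 and -0.87, and of -0.04 and -0.09 without the high-collagen libraries, where DESeq2 called 1 progenitor marker lower. Median log2 fold changes were 0.47 for ciliated cells, 1.90 for endoderm and 2.14 for mesothelium, and 0.99, 0.72 and -0.10 without the high-collagen libraries. They were 0.14 for amnion and trophoblast and 1.98 for endothelium and blood, and 0.02 and 1.63 without those libraries. For endoderm, mesothelium, and endothelium and blood, 5 markers each passed the filter with all libraries, and 3, 4 and 4 without the high-collagen ones. DESeq2 then still called DNAH9, IGFBP3 and KDR (adjusted p 0.0105, 0.0138 and 0.0107) and no longer GATA6, UPK3B, GATA2 or PTPRC (adjusted p 0.334 to 0.615). It also still called 1 of the 16 mesenchymal markers, TAGLN (log2 fold change 3.97, adjusted p 0.00862), while ACTA2 stood at 3.13 (adjusted p 0.191). The part of any of these cell types in the keratin, claudin and TTR levels was not tested.

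H3K27me3 lay at most of the 9 genes in both genotypes. A peak of the KO list lay within 2 kb of 6 of the 9 genes and a peak of the WT list within 2 kb of 7, against 9.68% and 9.32% of 36378 genes with a position. The window was set around the start where RefSeq promoter sequence gave it (KRT8 and CLDN6) and otherwise around either end of the span, since the table of positions has no strand. KRT7, KRT19, CLDN6, EPCAM, CDH1 and GRHL2 had peaks in both lists, as did 8.24% of all genes, and TTR had none in either list. The KO list was called from 37.6 M tags and the WT list from 22.4 M, and with 1 list per genotype no difference between them can be tested. The KO list is assigned by the labels to both knockout lines, and its header names 1 alignment, so the line or lines behind it cannot be told apart. The folds over control and q-values given next are the authors' own.

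CDH1 and GRHL2 carried broad peaks at the lower-coordinate end of their spans. At CDH1 the KO peak chr16:68736572-68738901 had a fold of 13.6 over control (-log10 q of 62.2) and the WT peak chr16:68735990-68738851 a fold of 13.1 (-log10 q of 42.1). At GRHL2 the KO peak was 4278 bp long with a fold of 12.4, and the WT peak was 3991 bp long with a fold of 8.78. In RNA, CDH1 had at most 36 counts and GRHL2 at most 4 in any library. EPCAM had a KO peak of 1739 bp with a fold of 7.34 and a WT peak of 1371 bp with a fold of 8.76 at its lower end.

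KRT7, KRT19 and CLDN6 also had peaks in both lists. At KRT19 the KO peak chr17:41526825-41529880 had a fold of 10 (-log10 q of 35.9), and the WT list had a main peak at chr17:41526738-41529371 with a fold of 15.3 (-log10 q of 47.9), at the upper end of the gene. At CLDN6 the KO peak chr16:3017347-3018226 was 880 bp long with a fold of 5.08 (-log10 q of 9.78), and the WT peak chr16:3017145-3018551 was 1407 bp long with a fold of 8.21 (-log10 q of 16.9), each reaching into the promoter sequence printed above. At KRT7 the peak at the lower end was 2692 bp long with a fold of 7.91 in the KO list and 4047 bp long with a fold of 13.5 in the WT list. KRT19 and CLDN6, which the authors' deposited table called higher in KO RNA, thus kept a listed peak in KO. Median folds over all peaks were 4.5 in the KO list and 5.28 in the WT list, so folds are not on an equal footing between the lists.

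KRT18 was the 1 gene with peaks in the WT list and none in the KO list, as were 1.08% of all genes. The WT peaks chr12:52948796-52949224 and chr12:52949319-52950071 lay at its lower end, over the stretch shared with KRT8, with folds of 3.5 and 5.23 and -log10 q of 5.32 and 7.93. The first lay below the median fold of the WT list and the second near it. Of the 2851 WT peaks with a q between those of these 2 peaks, 42.4% overlapped no KO peak, against 27.7% of all 10340 WT peaks and 10.8% of those with a stronger q. The same peaks touch the upper end of the KRT8 span, so that KRT8 counts as an 8th gene in the WT list when both span ends are used for every gene, against 9.94% of all genes.

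**Figure D4:**
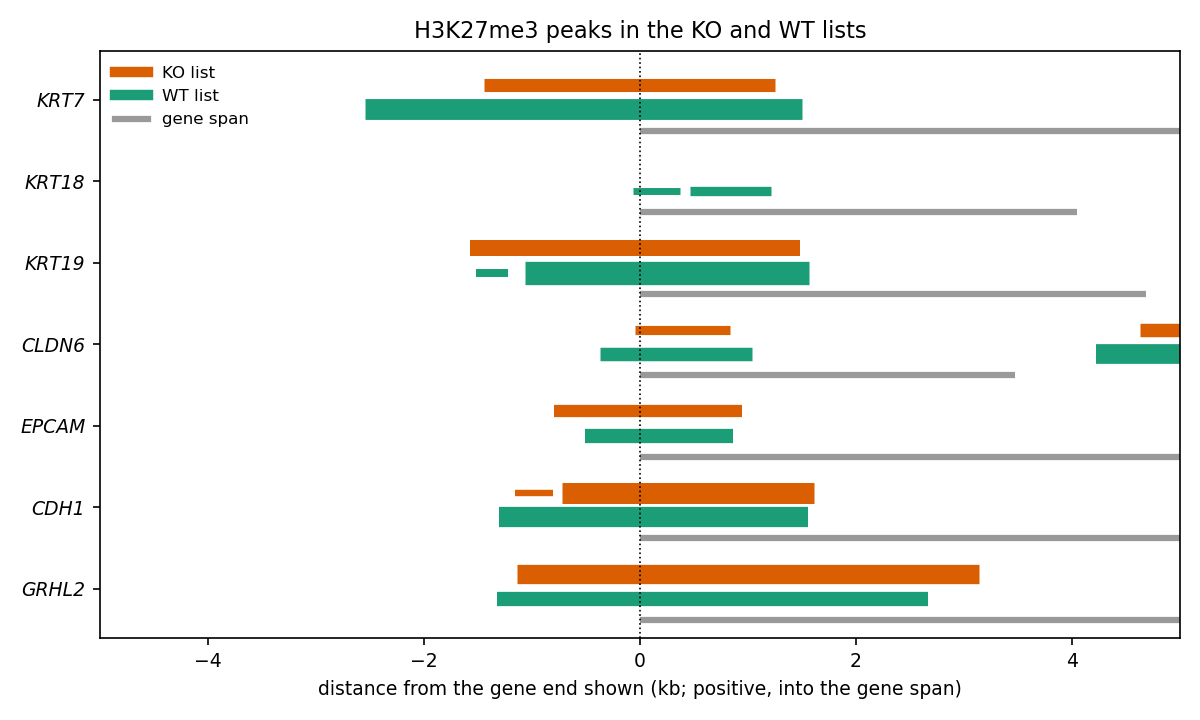
H3K27me3 peaks of the KO list (upper bars) and the WT list (lower bars) around the end of each gene where peaks lie, in kb with positive values into the gene span (grey); bar thickness grows with the authors' fold over control. KRT18 has bars of the WT list only, and the other 6 genes have bars of both lists.

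H3K36me3 peaks overlapped the span of 0 of the 9 genes in the KO list and 0 in the WT list, against 10.6% and 20.1% of all genes with a position. TTR, with up to 686.7 CPM in KO and 67.0 CPM in WT, thus had a peak of neither mark. These peaks were called as narrow, with a median length of 254 bp in the KO list and 382 bp in the WT list.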

How the data were processed

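Per the submitters' processing notes, RNA was quantified with Salmon 1.1.0 and tested with DESeq2 1.26.0, and ChIP reads were aligned with Bowtie2 2.4.1, on GRCh38. The authors deposited estimated counts per gene symbol, not normalized, and a table of KO against WT with log2 fold changes, standard errors, a Wald score, a mean normalized count signal, p-values and adjusted p-values; an adjusted p of 1 also stands for a missing one. MACS2 2.2.7.1 was run by the authors in its narrow mode (q of 0.01), per the file headers, and the deposited lists give pileup signal, fold ratio over control and −log10 q-values. The control is named input in titles and normal rabbit IgG as antibody.

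Counts were rounded and tested with edgeR 4.0.16 in R 4.3.3 (filterByExpr, TMM, quasi-likelihood F-test, Benjamini-Hochberg over all genes, FDR 0.05), with DESeq2 1.42.0 as an alternative. KO pooled KO1 and KO2, and a fit with 3 groups gave the contrasts of lines. CPM are TMM-scaled, and log2 CPM used a prior count of 2. The scripts were tested on simulated data. Peaks counted at an overlap of at least 1 bp. Gene spans and promoters are from RefSeq GRCh38.p14, without strand or exons. The 9 genes and all lists were chosen with earlier results of these data known. From each list the text names the 2 most abundant genes and up to 3 of lowest adjusted p in the authors' table, with some genes that meet this rule not reported here, and for likeness up to 3 genes with a mean of at least 1 CPM in the member. Genes named as at or under a level were chosen after their values were seen. The high-collagen grouping, DESeq2 with libraries left out or without its filter on Cook's distance, and the window at either end were added after seeing the data. Replicate number as a block, RLE scaling, other filters, windows and peak thresholds were further alternatives. Limits for counts of 0 cover counting error only. Raw reads were not analysed here.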

Additional observations from a re-analysis of the deposited data

Results flagged for a closer look

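KO2 replicate 1 stood apart from the other 4 KO libraries for the 3 keratins KRT7, KRT8 and KRT18. The measure was the gap to the next library relative to the range of the 5 (Dixon's criterion at 95%). Normally distributed values meet it by chance in about 1 in 20 groups, and that rate may not hold for CPM without logs. KRT7 stood at 6.23 CPM there, against 0.235 to 0.743 CPM in the other KO libraries and 0 to 1.18 CPM in WT. KRT8 stood at 222.6 CPM, against 7.96 to 37.8 CPM in the other KO libraries and 5.59 to 7.62 CPM in WT. KRT18 stood at 269.9 CPM, against 7.67 to 22.6 CPM in the other KO libraries and 3.22 to 9.36 CPM in WT. The same library stood apart for 2 choroid plexus genes, CLIC6 at 95.8 CPM, against 2.32 to 27 CPM in the other KO libraries and 0.429 to 4.86 CPM in WT, and PRLR at 22.2 CPM, against 3.03 to 6.73 CPM in the other KO libraries and 0.751 to 2.64 CPM in WT. KRT19, the other keratin among the 9 genes, stood at 13.6 CPM in that library, inside the range of the other KO libraries. A level at least 5 times that of every other library was reached in KO2 replicate 1 by 0.365% of tested genes. CLIC6 and PRLR did not reach it. That rule is not Dixon's criterion, whose share over all tested genes was not counted. Dixon's criterion was tried on the highest and the lowest KO library of each of the 9 genes. It was also tried on the list genes named by rule, so some flags can arise by chance. Other list genes were not tried, and some of them also stood far highest in KO2 replicate 1. KRT80 stood at 10.8 CPM there and at 0 to 0.617 CPM in the other KO libraries. MARVELD3, AQP1 and WT1 stood at 13.9, 25.7 and 24.7 CPM, against at most 1.72, 4.6 and 1.91 CPM in the other KO libraries. KO2 replicate 1 was the highest library for 16.9% of all tested genes.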

How the results depend on the processing

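edgeR called 0 genes and 0 of the 9 in KO against WT under every alternative run. DESeq2 called 1243 genes for KO against WT, 173 for KO1 against WT, 839 for KO2 against WT and 9 for KO2 against KO1, and 4 of the 9 for KO against WT. With single libraries left out, edgeR counts ranged from 0 to 3228 for KO2 against WT and from 0 to 958 for KO2 against KO1, the highest without KO1 replicate 2, and DESeq2 called 2 to 4 of the 9 for KO against WT. KRT8, called with all libraries, had DESeq2 adjusted p of 0.0813 to 0.112 without single WT libraries, and no p without KO2 replicate 2. Without the high-collagen libraries DESeq2 called 1, and no KO2 library is left, so the contrasts with KO2 could not be fitted there. Deviations of same-numbered libraries correlated between -0.321 and 0.267, and those of differently numbered libraries between -0.267 and 0.339. With so few libraries per group, these values cannot tell whether the replicate numbers pair the libraries. The fit with the replicate block called 0 genes in all 4 comparisons and 0 of the 9, and turned 2 signs, to 0.36 for KRT7 in KO1 against WT and -0.28 for EPCAM in KO2 against KO1. With KO against WT, KRT7 ranged from -0.11 to 3.53 with single libraries left out and was -0.51 without the high-collagen libraries. With single libraries left out, KO1 against WT ranged from -1.05 to 1.31 for KRT7 and from -0.01 to 0.88 for EPCAM. KO2 against WT ranged from -0.14 to 1.11 for EPCAM. KO2 against KO1 ranged from -0.53 to 0.70 for EPCAM, from -1.02 to 1.1 for CDH1 and from -0.11 to 2.59 for TTR. The cause of these changes was not tested. The H3K27me3 counts stayed at 6 in the KO list and 7 or 8 in the WT list, and the H3K36me3 counts at 0, under all thresholds and windows run. Depth limits KRT7, CDH1 and GRHL2 most.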
